A study of Mus musculus with 23 samples.

Results

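The receptors of sphingosine-1-phosphate (S1P) and the enzymes that make and destroy it were measured by RNA-seq in the brown adipose tissue (BAT) of 23 mice. The 7 genes, S1pr1, S1pr2, S1pr3, S1pr5, Sphk1, Sphk2 and Sgpl1, were taken by their symbols from a table of 14651 genes, and all 7 had a row. S1pr5 was chosen by its own normalized counts, which differed between the genotypes at 4°C in these same mice, and the other members were set beside it as its family. The values of genotype at 4°C are therefore given as a description, without a test.

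The control genotype was sampled in 6 mice at RT (room temperature) and 5 mice at 4°C, and the BAT-Mcu-KO genotype in 6 mice at each temperature. All were C57BL/6 males aged 8 to 12 weeks, and all carried loxP sites around exon 2 of both alleles of Mcu, the pore-forming subunit of the mitochondrial calcium uniporter. BAT-Mcu-KO mice, called knockout mice below, also carried 1 copy of UCP1-Cre. There Cre recombinase is under the Ucp1 promoter, which is active in brown adipocytes. By this design the endothelial, mural, immune and nerve cells of the tissue should keep the gene, but this was not measured. The mice at 4°C spent 6 h there, singly housed in cages without bedding and without food. Whether the mice at RT had food or were housed singly for this experiment is not given in the sources used here, so cold, fasting and housing cannot be told apart in the comparison of temperatures.

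S1P is a lipid mediator that circulates at a high level in blood and lymph. Sphingosine kinases phosphorylate sphingosine to S1P, the lyase Sgpl1 cleaves S1P irreversibly in the endoplasmic reticulum, and between them lie phosphatases that return S1P to sphingosine. Outside the cell S1P acts on a family of G protein-coupled receptors. S1pr1 couples to Gi and is the main receptor of endothelium, where it keeps vessels tight, S1pr2 and S1pr3 couple to several G proteins and are common in smooth muscle and other stromal cells, S1pr4 belongs to blood cells, and S1pr5 is best known from natural killer cells and from oligodendrocytes.

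The depth was 7129271 to 21006347 reads per mouse, with a median of 13602248. Mcu itself had a normalized count of 81.4 to 136 in control mice at RT and 70.8 to 132.2 in control mice at 4°C, against 15.2 to 42.4 and 24.0 to 39.9 in knockout mice. Its level was lower in every knockout mouse than in every control mouse. The sum of 9 brown adipocyte markers, all of them in the table, was 240545 to 316955 at RT and 393021 to 479102 at 4°C over both genotypes. The sum of 8 skeletal muscle markers ran from 13.7 to 44847 over the mice and passed 10000 in 3 of 5 control mice at 4°C and 3 of 6 knockout mice at RT, but in 0 of 6 mice of each of the other groups. Leaving out those 6 libraries, a step chosen after the data were seen, left 5 of the 7 S1P genes called by cold in each genotype. It left few mice among the controls at 4°C and the knockouts at RT, so the unchanged count is weak support.

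Cold moved most of the S1P genes, and in both genotypes. In control mice S1pr1, Sphk1, Sphk2 and Sgpl1 rose, S1pr5 fell, and S1pr2 and S1pr3 did not pass the test, so that 5 of the 7 were called, where 46% of all genes tested were called (22.3% higher and 23.7% lower). In knockout mice the same 4 genes rose and S1pr5 fell, 5 of 7 again, beside 43.3% of all genes (21.4% higher and 21.9% lower). The called genes of each genotype include S1pr5, whose choice used the mice at 4°C. A gene was called at a Benjamini-Hochberg adjusted p under 0.05 over the 14651 genes, in a limma fit of log2(normalized count + 1), and all fold changes below are on that scale. The temperature groups did not overlap for 5 of the 7 genes in control mice and for 4 of the 7 in knockout mice. Over all genes this held for 25.2% and 24.2%. The set holds only 7 genes, was chosen with earlier results of these data known, and was not tested as a set. These counts are therefore not a result about the set, and the values of each gene follow.

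**Figure D1:**
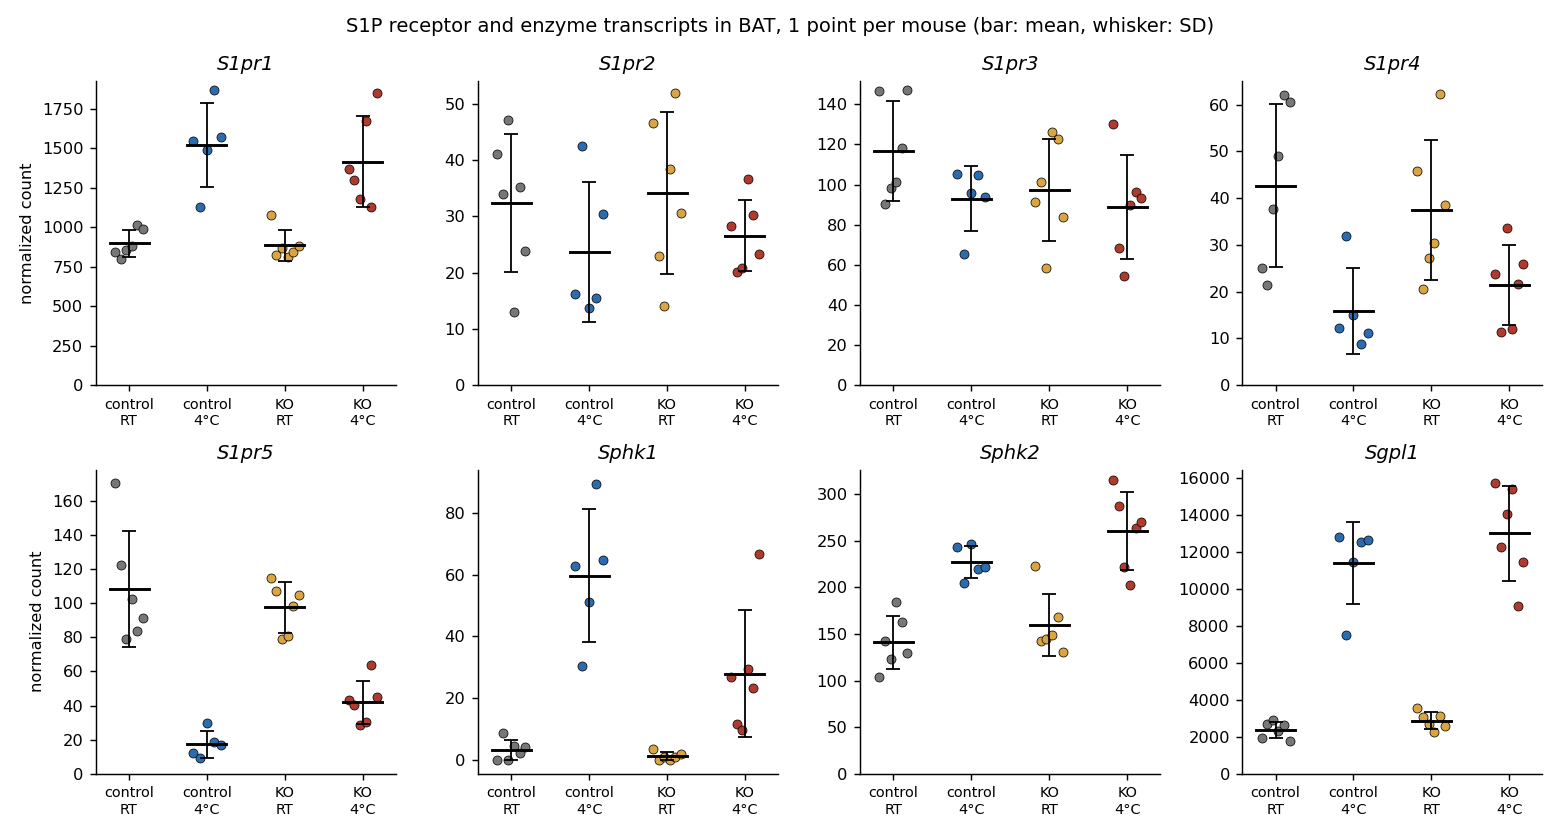
Normalized count of each S1P gene, with S1pr4 added, in every mouse; points are mice, horizontal bars are group means and whiskers are SD. S1pr5 lies between 79.3 and 170.2 in control mice at RT and between 9.11 and 29.9 in control mice at 4°C, while knockout mice at 4°C lie between 28.8 and 63.6.

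Among the receptors S1pr5 had the steepest change. It lies on chromosome 9 of GRCm38 at 21242912 to 21248443, on the minus strand. In control mice at RT its normalized count was 79.3 at the lowest, 96.8 at the median and 170.2 at the highest. In the 5 control mice at 4°C it was 12.1, 9.11, 29.9, 18.4 and 16.8. All mice at 4°C were below all mice at RT, and the mean went from 108.2 ± 34.0 (SD, n = 6) to 17.3 ± 7.96 (SD, n = 5), 6.27-fold lower. Limma fitted this fall as -2.63 on the log2 scale (SE 0.25, adjusted p = 3.79e-09). The mice at 4°C served to choose the gene, so this p-value is not free of that choice.

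In knockout mice at RT the S1pr5 count was 78.9 at the lowest, 101.6 at the median and 114.8 at the highest. After 6 h at 4°C it was 28.8, 41.9 and 63.6. Here too the temperatures did not overlap, and the mean went from 97.5 ± 14.7 to 41.9 ± 12.6 (SD, n = 6 each), 2.33-fold lower, which limma fitted as -1.23 on the log2 scale (SE 0.24, adjusted p = 0.000134). The control level at 4°C rests on 6 to 25 reads per mouse and the BAT-Mcu-KO level on 18 to 82, so these are low counts. Both cold comparisons of S1pr5 use the 4°C mice in which the gene was chosen, and their p-values are not free of that choice.

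At RT, in mice that the choice of S1pr5 did not use, the genotypes were close. The log2 fold change of BAT-Mcu-KO over control was -0.11, with a 95% interval of -0.60 to 0.37 (adjusted p = 0.999, limma). At 4°C the mean of the knockout mice was 2.43-fold that of the control mice, and 5 of the 6 knockouts exceeded every control mouse. The fitted difference at 4°C was 1.29 on the log2 scale (SE 0.25), and the difference between the 2 cold responses was 1.40 (SE 0.34). Both are descriptions of the contrast that chose the gene. Leaving out each mouse in turn moved the difference at 4°C between 1.10 and 1.50.

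Markers of the cells best known for S1pr5 were scarce in this tissue. Of 9 natural killer cell markers, among them Ncr1, Klrb1c, Gzma and Prf1, 0 had a row in the table, and of 9 T and B cell markers 1 had a row, with a summed level of 0 to 17.9 per mouse. Only genes with 8 reads in 6 or more samples were kept, so a missing row does not show absence. The 1 T and B cell marker was called lower by cold in knockout mice (log2 fold change -1.91) and not in control mice (-0.77). Tbx21, a factor of natural killer and T cells outside these lists, had a row. Its count was 2.98 to 14.4 at RT and 0 to 19.2 at 4°C in control mice, and 1.97 to 11.65 and 2.74 to 7.01 in knockout mice. Schwann cell and glial markers had 7 of 8 in the table. Mag was the marker not in the table. By cold 2 of the 7 were called lower in each genotype, beside 23.7% of all genes in control mice and 21.9% in knockout mice. The glial sum was 1111 to 1925 in control mice at RT and 772.2 to 1183 at 4°C, and 1305 to 1724 and 924.4 to 1427 in knockout mice. This sum moved in the direction of S1pr5, by far less and with overlapping ranges, and its part in the S1pr5 values was not tested. In bulk tissue, fewer cells of a type and less RNA per cell cannot be told apart for any of these genes. Within groups, the log2 deviations of S1pr5 from the group mean correlated with none of the 8 marker sums above r = 0.327 over 23 mice.

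The receptor S1pr2 sits on the same chromosome and strand as S1pr5, at 20962361 to 20976781, 266130 bases away with 8 tested genes between them. It was a low transcript, with 13.1, 34.6 and 47.2 as the lowest, median and highest normalized count in control mice at RT. The 5 control mice at 4°C had 16.2, 42.5, 13.7, 15.4 and 30.5. These groups overlapped widely, and the log2 fold change of -0.47 (95% interval -1.18 to 0.24, adjusted p = 0.279, limma) did not pass the test. In knockout mice the lowest, median and highest counts were 14.1, 34.6 and 52.1 at RT and 20.2, 25.8 and 36.6 at 4°C, with a log2 fold change of -0.26 (95% interval -0.94 to 0.42). These values rest on 8 to 56 reads per mouse, and the fall fitted for S1pr5 in control mice lies outside both intervals.

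Genes between and around this pair moved in both directions. Of 28 tested genes whose position lies within 0.5 Mb of S1pr5, cold called 6 higher and 5 lower in control mice and 5 higher and 6 lower in knockout mice. Over all genes 22.3% were called higher and 23.7% lower in control mice, and 21.4% and 21.9% in knockout mice. The counts are therefore not a result about this stretch. The most extreme of the 28 were Cdkn2d, a cell cycle inhibitor that fell in control mice from a mean of 140.7 to 44.7 (log2 fold change -1.72), and the adhesion molecule Icam1, which rose from 38.8 to 122.3 (log2 fold change 1.69). By genotype at RT 0 of the 28 were called, beside 0.0478% of all genes.

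The sequences just upstream of the transcription starts of S1pr5, S1pr2 and Sgpl1 are shown because these are the receptor with the steepest fall, its chromosomal neighbour that did not pass the test, and the enzyme with the strongest call. They come from RefSeq on GRCm38.p6 and are written 5′ to 3′ on the strand of the gene, ending at the base before the start (for Sgpl1, before the start of the GENCODE gene). Capitals mark the cAMP response element TGACGTCA, the site that CREB family factors bind.
S1pr5, chr9:21248444-21248693, minus strand: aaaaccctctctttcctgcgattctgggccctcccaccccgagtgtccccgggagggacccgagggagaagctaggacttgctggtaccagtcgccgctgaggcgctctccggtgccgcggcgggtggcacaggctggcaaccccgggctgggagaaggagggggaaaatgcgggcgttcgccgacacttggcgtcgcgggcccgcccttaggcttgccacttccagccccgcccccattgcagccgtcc
S1pr2, chr9:20976794-20977043, minus strand: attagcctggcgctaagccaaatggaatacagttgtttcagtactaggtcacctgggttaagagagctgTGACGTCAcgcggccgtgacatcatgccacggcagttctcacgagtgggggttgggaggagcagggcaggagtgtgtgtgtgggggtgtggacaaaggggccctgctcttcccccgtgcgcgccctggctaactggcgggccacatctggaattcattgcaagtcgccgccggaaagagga
Sgpl1, chr10:61147704-61147934, minus strand: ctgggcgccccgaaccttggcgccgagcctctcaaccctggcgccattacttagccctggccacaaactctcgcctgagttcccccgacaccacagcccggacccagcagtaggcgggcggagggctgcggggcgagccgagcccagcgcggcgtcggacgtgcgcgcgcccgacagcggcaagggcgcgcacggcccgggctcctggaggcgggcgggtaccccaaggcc

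Both strands of the 250 bases before each start were searched. TGACGTCA occurred in 1.55% of 32851 such windows of all genes and, among the windows of 6 members with an entry, in S1pr2 alone, where its first base lay 181 bases before the start. Its shorter core TGACG, which the full site contains on both strands, occurred in 17.8% of all windows, and among the members in S1pr2, in a window of Sphk2 at 49 bases before the start, and in 2 of the 5 windows of Sphk1. The AP-1 site TGANTCA occurred in 6.75% of all windows and in the same 2 windows of Sphk1, and the E-box CACGTG in 6.02% and in 2 other windows of Sphk1. The windows of each pair overlap, so the AP-1 match is the same site seen in both, and so is the E-box match. Of the TGACG matches in Sphk1, 1 is shared between windows in the same way. The nuclear receptor half-site AAAGGTCA, found in 1.34%, was in none of them. The windows of S1pr5, S1pr3 and Sgpl1 held none of the 5 motifs, which says only that these letters are not in these stretches.

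S1pr1 was by far the most abundant receptor, and it rose in the cold. It lies on chromosome 3 at 115710433 to 115715072. Its normalized count in control mice at RT was 796.1 at the lowest, 870.1 at the median and 1013 at the highest, against 1547, 1128, 1490, 1873 and 1571 in the 5 control mice at 4°C. All mice at 4°C exceeded all mice at RT, with means of 897.6 ± 85.8 (SD, n = 6) and 1522 ± 266 (SD, n = 5), and limma fitted a rise of 0.75 on the log2 scale (SE 0.12, adjusted p = 2.19e-05). Knockout mice went from 814.4, 855 and 1076 at RT to 1128, 1334 and 1852 at 4°C, again without overlap, which limma fitted as 0.66 on the log2 scale (SE 0.12, adjusted p = 6.08e-05).

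The summed endothelial transcripts moved with S1pr1, though not every marker did. All 12 markers on the endothelial list had a row, 7 of them rose and 2 fell in the cold in control mice, and 7 rose and 1 fell in knockout mice. Over all genes 22.3% rose and 23.7% fell in control mice, and 21.4% and 21.9% in knockout mice. For the marker Cdh5 the temperatures overlapped, with 396.3 to 704.1 at RT and 513.8 to 825.7 at 4°C in control mice. Its ranges in knockout mice, 439.6 to 757.7 and 512.9 to 770.2, overlapped as well. The sum of the 12 markers, weighted to the abundant ones, was 7440 to 9526 in control mice at RT and 11614 to 17916 at 4°C, and 7117 to 9481 and 11148 to 16415 in knockout mice. As a percentage of that sum S1pr1 was almost level: 11.0 ± 1.24 and 10.6 ± 0.837 in control mice at RT and at 4°C, and 11.0 ± 0.979 and 10.5 ± 1.64 in knockout mice (SD, n = 6, 5, 6 and 6). Pecam1, the endothelial adhesion molecule, was the gene whose log2 deviations from the group means were most like those of S1pr1 (r = 0.805 over 23 mice, among 9531 genes with a mean normalized count of at least 50), and with the log2 marker sum the correlation was 0.681.

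**Figure D2:**
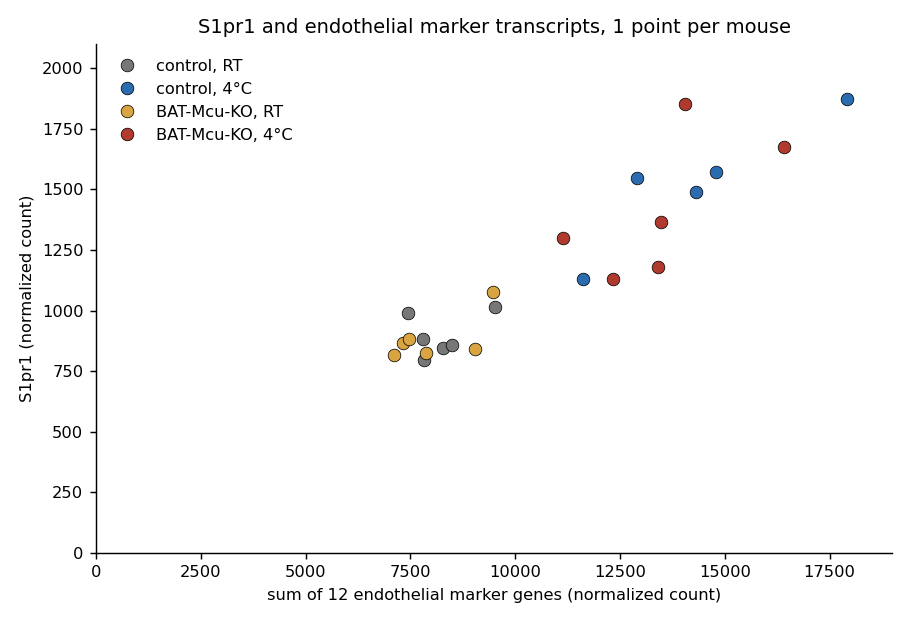
S1pr1 against the sum of the 12 endothelial marker genes, both as normalized counts, with 1 point per mouse coloured by group. Mice at 4°C lie higher on both axes than mice at RT, with sums from 11148 against sums of at most 9526.

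S1pr3, on chromosome 13 at 51408639 to 51422797, did not pass the test. Control mice had 90.2, 109.6 and 147 as the lowest, median and highest count at RT, and 105.2, 65.3, 95.8, 105 and 93.8 at 4°C. In knockout mice the corresponding values were 58.2, 96.4 and 126.3 at RT and 54.3, 91.5 and 130.1 at 4°C. All 4 groups overlapped, with log2 fold changes by cold of -0.32 (95% interval -0.75 to 0.11, adjusted p = 0.224, limma) in control mice and -0.14 (95% interval -0.55 to 0.27, adjusted p = 0.607) in knockout mice. The remaining receptor S1pr4, which is no member of the set, went from a mean of 42.6 ± 17.5 to 15.8 ± 9.25 in control mice (log2 fold change -1.41, adjusted p = 0.00191, limma) and from 37.5 ± 15.0 to 21.3 ± 8.52 in knockout mice (log2 fold change -0.79, adjusted p = 0.0591).

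Levels of different genes were compared per kb of exon, which removes gene length but not differences in how evenly a transcript is covered. At RT S1pr1 made up 76.3% ± 3.09 (SD, n = 6) of the summed level of the 5 receptors in control mice, and S1pr5 was next with 11.3% ± 3.71. At 4°C these shares were 92.9% ± 1.34 and 1.28% ± 0.564 (SD, n = 5). In knockout mice S1pr1 had 78.3% ± 3.10 at RT and 90.3% ± 2.61 at 4°C, and S1pr5 10.5% ± 1.19 and 3.37% ± 1.35 (SD, n = 6 each). The S1pr1 share was 70.4% to 78.9% at RT and 90.9% to 94.4% at 4°C in control mice, without overlap. In knockout mice it was 73.6% to 83.1% and 86.1% to 93.0%, also without overlap. The S1pr5 share at 4°C was 0.893% to 2.25% in control mice and 2.04% to 5.91% in knockout mice, and these ranges overlapped. It is made of the counts at 4°C that chose S1pr5, so it restates that contrast and is no further evidence for it.

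**Figure D3:**
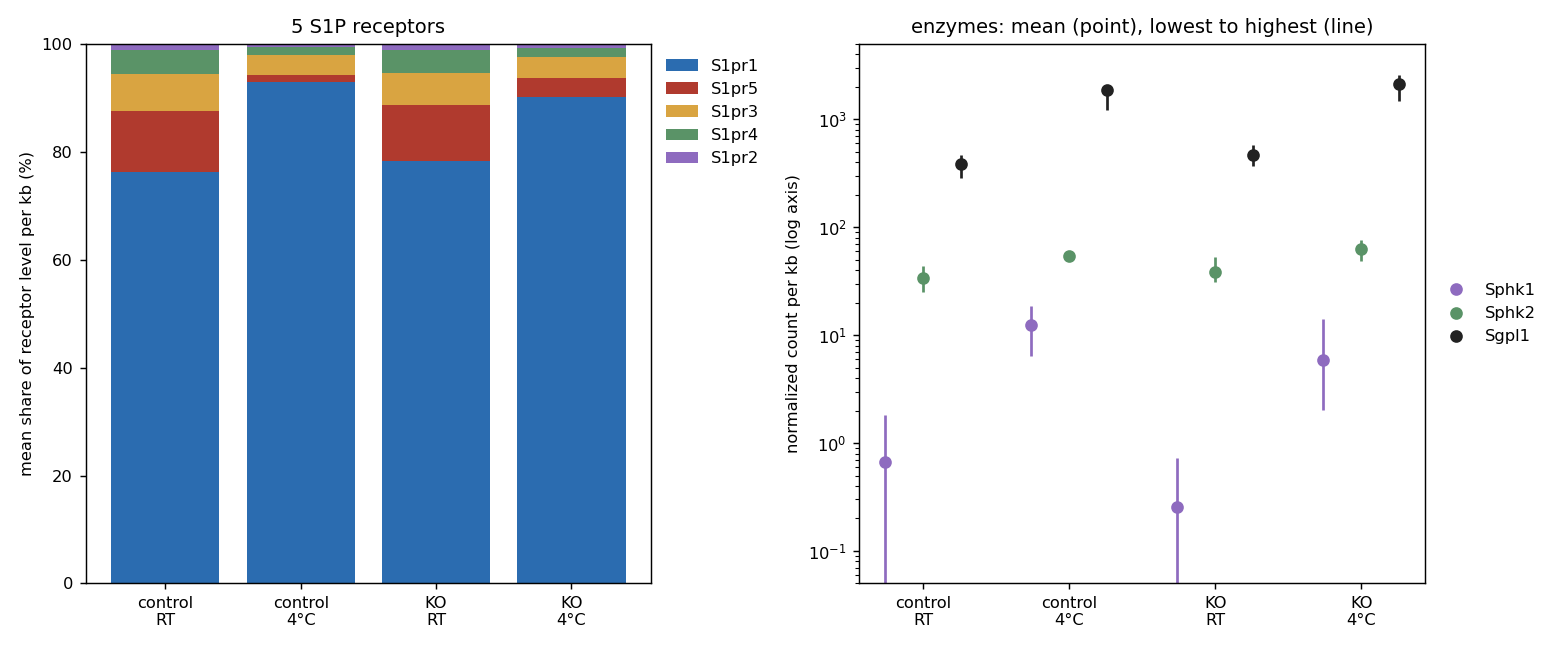
Left, mean share of each of the 5 receptors in their summed level per kb of exon (stacked bars, percent) by group. Right, normalized count per kb of the 3 enzymes on a log axis, with points for group means and lines from the lowest to the highest mouse, cut at the bottom of the axis where a mouse had 0; Sgpl1 stands highest in every group and Sphk1 lowest.

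On the side of S1P synthesis both kinases rose. Sphk1, the cytoplasmic and inducible kinase, lies on chromosome 11 at 116530925 to 116536674. It was close to absent at RT, with 0, 9, 0, 4, 2 and 4 reads in the 6 control mice and 4, 0, 1, 0, 1 and 2 reads in the 6 knockout mice. In the control mice at 4°C there were 31, 20, 41, 122 and 81 reads, or normalized counts of 62.7, 30.4, 51.0, 89.6 and 65.0. Knockout mice at 4°C had 9.59 at the lowest, 25.1 at the median and 66.7 at the highest.

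The temperatures did not overlap for Sphk1 in either genotype. Means went from 3.19 ± 3.29 to 59.7 ± 21.6 in control mice, an 18.7-fold ratio, and from 1.22 ± 1.32 to 27.9 ± 20.7 in knockout mice. No ratio is given for the knockouts, since their RT level rests on 8 reads in all, under a floor of 3 reads per mouse. The log2 fold changes were 4.24 (SE 0.57, adjusted p = 1.14e-06, limma) and 3.64 (SE 0.54, adjusted p = 5.56e-06). With a pseudocount of 10 in place of 1 they were 2.38 and 1.61, so their size follows that choice and is no bound, while the call held. At 4°C, 5 of the 6 knockouts had less Sphk1 than every control mouse (log2 difference -1.27, SE 0.57), which is given without a test.

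Sphk2, the kinase of nucleus and mitochondria, lies on chromosome 7 at 45709467 to 45718002. Its normalized count in control mice was 104.1, 135.8 and 183.9 (lowest, median, highest) at RT and 242.7, 204.9, 246.4, 219.6 and 222.1 at 4°C. The knockouts had 130.3, 146.7 and 222.6 at RT, against 202.1, 266.5 and 315.5 in the cold. The groups were apart in control mice and overlapped in knockout mice, where 4 of 6 mice at 4°C exceeded all mice at RT. Limma fitted a rise of 0.71 on the log2 scale in both genotypes, with SE 0.15 and adjusted p = 0.000312 in control mice and SE 0.14 and adjusted p = 2e-04 in the knockouts.

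Counting was irrespective of strand, and Sphk2 shares 539 bases of exon (13.0% of its exon length) with Dbp and 373 bases (9.0%) with Rpl18, both on the opposite strand. Dbp had means of 60.4 at RT and 34.8 at 4°C in control mice and 65.9 and 31.2 in knockout mice, and Rpl18 had 664.5, 618.8, 622.5 and 641.9. S1pr3, S1pr5 and Sphk1 share 1.0%, 2.0% and 4.0% of their exon length with opposite-strand genes that had no row.

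The lyase had the strongest call of the set. Sgpl1 lies on chromosome 10 at 61098642 to 61147703, and it ended up at the level of an abundant transcript. Control mice had 1772, 2479 and 2882 (lowest, median, highest) at RT, and 12774, 7501, 11451, 12536 and 12650 at 4°C. Knockout mice had 2269, 2858 and 3543 at RT, and 9041, 13164 and 15734 at 4°C. Even the lowest mouse at 4°C was more than any mouse at RT by a wide gap.

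Means of Sgpl1 went from 2374 ± 442 to 11382 ± 2233 in control mice, 4.79-fold, and from 2870 ± 456 to 12994 ± 2567 in knockout mice, 4.53-fold. The log2 fold changes were 2.26 (SE 0.16, adjusted p = 2.44e-11, limma) and 2.17 (SE 0.15, adjusted p = 2.16e-11), which ranked 66 and 62 by p-value among the 14651 genes. Within groups the log2 deviations of Sgpl1 correlated with those of the endothelial marker sum at r = 0.637 over 23 mice. As a percentage of that sum, however, Sgpl1 was 28.9 ± 4.79 at RT and 79.8 ± 13.5 at 4°C in control mice and 35.6 ± 2.44 and 96.7 ± 16.9 in knockout mice, without overlap, unlike S1pr1.

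Per kb of exon the lyase exceeded the summed kinases in every mouse. The ratio of Sgpl1 to Sphk1 plus Sphk2 was 11.5 ± 2.72 at RT and 27.4 ± 3.37 at 4°C in control mice, with 8.42 to 15.9 against 22.0 to 30.7. In knockout mice it was 12.3 ± 1.56 and 32.0 ± 9.72, with 10.3 to 14.5 against 21.6 to 45.8. Transcript ratios say nothing of enzyme activity or of the amount of S1P. Among the kinases the share of Sphk1 went from 1.80% ± 1.91 to 18.3% ± 5.55 in control mice and from 0.613% ± 0.594 to 8.33% ± 5.43 in knockout mice.

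Put in order by level per kb, control mice at RT had Sgpl1 (386.5) and S1pr1 (294.7) on top with overlapping ranges, then S1pr5 (43.3), Sphk2 (33.9) and S1pr3 (26.2), where each range overlapped the next, then S1pr2 (4.06) and Sphk1 (0.668). At 4°C the order in control mice was Sgpl1 (1853), S1pr1 (499.6), Sphk2 (54.6), S1pr3 (20.8), Sphk1 (12.5), S1pr5 (6.91) and S1pr2 (2.97). Here the ranges from Sgpl1 down to S1pr3 were apart from each other, and from S1pr3 on each range overlapped the next. In knockout mice at 4°C S1pr5 (16.8) stood above Sphk1 (5.84), with ranges of 11.5 to 25.4 and 2.01 to 14.0, and the rest had the same order, with Sgpl1 at 2115, S1pr1 at 465.1, Sphk2 at 62.5, S1pr3 at 19.9 and S1pr2 at 3.33. Knockout mice at RT had Sgpl1 at 467.2, S1pr1 at 290.5, S1pr5 at 39.0, Sphk2 at 38.4, S1pr3 at 21.8, S1pr2 at 4.28 and Sphk1 at 0.255.

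Loss of Mcu at RT called 0 of the 7 genes, beside 0.0478% of all genes. Before adjustment 0 of the 7 had a p under 0.05, the smallest being 0.0733 for Sgpl1, against 754 of 14651 genes, and neither DESeq2 nor edgeR on the recovered reads called a member. The genotypes were fully apart at RT for 0 of the 7 genes and for 0.218% of all genes. Sgpl1 was 0.28 higher on the log2 scale in knockout mice (95% interval -0.03 to 0.59, adjusted p = 0.945, limma), and 3 of the 6 knockouts exceeded every control mouse. The 95% intervals of S1pr1 (-0.27 to 0.22), Sphk2 (-0.11 to 0.47) and S1pr3 (-0.69 to 0.13) leave out a change of 2-fold in either direction, those of S1pr2 (-0.62 to 0.73) do as well, and that of Sphk1 (-1.78 to 0.45) does not. A p above the threshold does not show that the genotypes are alike.

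S1pr5 was chosen by its difference between the genotypes at 4°C, so its large difference there, given above, follows from the choice. Among the other members Sphk1 had the largest difference (-1.27, SE 0.57, on the log2 scale), likewise given without a test. The log2 differences of BAT-Mcu-KO over control at 4°C were -0.11 for S1pr1, 0.27 for S1pr2, -0.10 for S1pr3, 0.18 for Sphk2 and 0.19 for Sgpl1, and for 0 of the 7 genes were the groups fully apart. Over all genes 0.0751% were called in this comparison, and 0.683% had groups that did not overlap.

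The cold response was also compared between the genotypes by an interaction term. In limma 0 of 14651 genes were called, with 878 at an unadjusted p under 0.05, while DESeq2 called 28 and edgeR 0. For the 6 members other than S1pr5 the differences in cold response were small or uncertain, with adjusted p of at least 0.935: -0.09 for S1pr1 (95% interval -0.44 to 0.27), 0.21 for S1pr2 (-0.77 to 1.19), 0.18 for S1pr3 (-0.42 to 0.78), 0.00 for Sphk2 (-0.42 to 0.42) and -0.09 for Sgpl1 (-0.54 to 0.36), all on the log2 scale. For Sphk1 the value was -0.60 with a wide interval of -2.22 to 1.01.

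**Figure D4:**
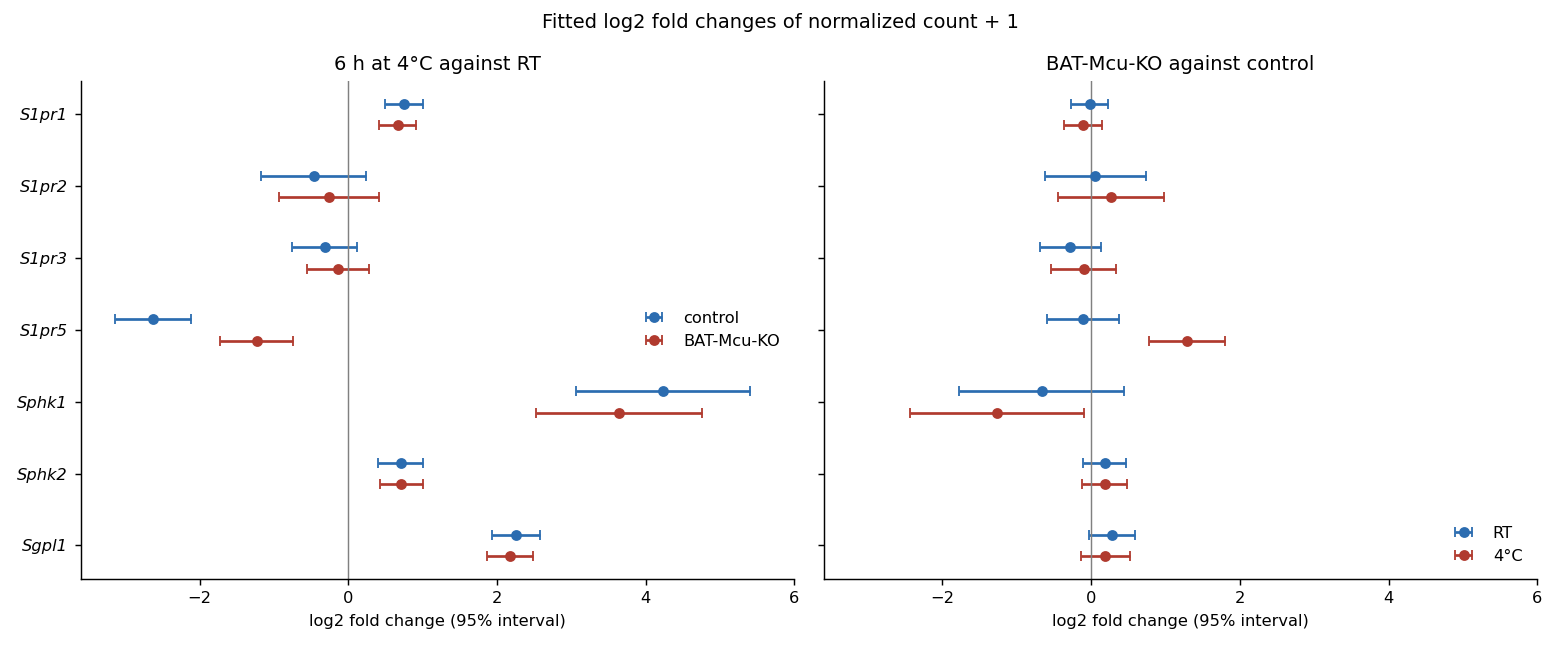
Fitted log2 fold changes of the 7 genes with 95% intervals, on the left for 6 h at 4°C against RT in each genotype and on the right for BAT-Mcu-KO against control at each temperature. S1pr5 has -2.63 in control and -1.23 in knockout mice on the left, and 1.29 at 4°C on the right, the contrast that chose it.

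The mice of a group can also be read for which genes vary together within groups. Of the 21 pairs of members the closest by log2 deviations from the group means were S1pr1 and Sphk1 (r = 0.552) and Sphk1 and Sphk2 (r = 0.466), and S1pr5 was closest to S1pr3 (r = 0.382). These are correlations over 23 mice that share library and depth, and they are given as a description. Among the 9531 genes with a mean of at least 50 the nearest to each member by this measure was Cygb for S1pr2 (r = 0.688), Mphosph6 for S1pr3 (0.827), Prickle3 for S1pr5 (0.717), Sh2d3c for Sphk1 (0.784), Phactr2 for Sphk2 (0.773) and Cars2 for Sgpl1 (0.831). By log2 level over the 23 mice, group differences included, the nearest to S1pr5 were Mthfsd (0.928), N4bp2l1 (0.926), 3110002H16Rik (0.917), Zfyve21 (0.917) and H2afv (0.915), all of which were lower in the cold in both genotypes.

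The wider lists, of sphingolipid metabolism, related lipid receptors and the G proteins and regulators downstream of S1P receptors, gave 65 tested genes from 82 symbols, some of them older and newer names of 1 gene. By cold in control mice 21 of the 65 rose and 14 fell, 53.8% called, beside 46% of all genes, with a median log2 fold change of 0.06 against -0.02 over all genes. In knockout mice 22 rose and 11 fell, 50.8% beside 43.3%, with a median of 0.07 against -0.02. By genotype at RT 0 of the 65 were called, beside 0.0478% of all genes, and by interaction 0. No list was tested as a set, and the counts by list that follow are not a result about any list.

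Of the 7 phosphatases and transporters tested, 3 rose and 1 fell in control mice, and 3 rose in knockout mice. The shares called were 57.1% and 42.9%, beside 46% and 43.3% of all genes. Ppap2a, a lipid phosphate phosphatase of the cell surface, went from a mean of 386.5 ± 76.1 to 849.6 ± 140 in control mice (log2 fold change 1.14) and from 308.7 to 804 in knockout mice (1.38), and its relative Ppap2b rose by 0.52 and 0.44. Mfsd2a, best known as a carrier of lysophosphatidylcholine and not of S1P, rose from 302.6 ± 297 to 4188 ± 558 (4.60) and from 365.3 to 4425 (3.86). The S1P exporter Mfsd2b fell in control mice (-1.07, adjusted p = 0.0245, limma) and had -0.63 (adjusted p = 0.17) in knockout mice, at means of 8.02 to 21.0.

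The ceramidases supply sphingosine, the substrate of the kinases. Of 4 tested, Acer2, the ceramidase of the Golgi apparatus, rose from 715.4 ± 139 to 1904 ± 520 in control mice (log2 fold change 1.40, adjusted p = 9.19e-08, limma) and from 818.2 ± 152 to 2544 ± 429 in knockout mice (1.64, adjusted p = 3.02e-09). The lysosomal Asah1 was called in knockout mice (0.40, adjusted p = 0.00288) and not in control mice (0.09, adjusted p = 0.524). Asah2 fell in knockout mice (-0.49, adjusted p = 0.0088) and had -0.29 (adjusted p = 0.128) in control mice. These differences between genotypes were not called by the interaction term, with adjusted p of 0.832 for Asah1 and 0.916 for Asah2.

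De novo ceramide synthesis moved both ways. Of 14 genes tested 3 rose and 7 fell in control mice, and 3 rose and 3 fell in knockout mice. This was 71.4% called in control mice, beside 46% of all genes, and 42.9% in knockout mice, beside 43.3%. Sptlc2, a subunit of the serine palmitoyltransferase that opens the pathway, rose from 246.1 to 373.7 in control mice (log2 fold change 0.60) and by 0.63 in knockout mice. The ceramide synthase Cers2 fell from 1861 to 1377 (-0.44) and, in knockout mice, by 0.35. Ormdl1, of the family that restrains serine palmitoyltransferase, had -0.54 and -0.49, both called, and Cers4 fell in control mice (-0.69) and had -0.30 (adjusted p = 0.142) in knockout mice.

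Sphingomyelin and glycosphingolipid turnover had 7 genes higher and 2 lower of 16 in control mice, and 7 higher and 1 lower in knockout mice. With 56.2% and 50% called, the list stood beside 46% and 43.3% of all genes. The sphingomyelin synthase Sgms1 rose from 501.8 to 1549 in control mice (log2 fold change 1.64) and from 523 to 1383 in knockout mice (1.40), and Sgms2 from 12.5 to 49.5 (1.90) and from 19.1 to 37.0 (0.94). The lysosomal alpha-galactosidase Gla rose from 34.0 to 119.4 (1.78) and from 31.1 to 121.1 (2.00). Ceramide kinase, Cerk, rose from 27.4 to 70.8 (1.32) and from 33.3 to 85.3 (1.35).

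Among 7 related receptors of lipid ligands, S1pr4 included, Gpr3, a constitutively active receptor coupled to Gs, went from a mean of 0.181 to 13.8 in control mice (adjusted p = 4.11e-06, limma) and from 0.614 to 6.68 in knockout mice (adjusted p = 0.000468). Its counts at RT are at the floor of 3 reads or under in the mean, so no fold is given. Lpar4, a lysophosphatidic acid receptor, fell in both genotypes (log2 fold change -1.02 and -0.67). Cnr1, the cannabinoid receptor, was called in knockout mice (1.84, adjusted p = 0.0051) and had 1.20 (adjusted p = 0.0707) in control mice.

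Downstream of the receptors 6 of 17 G proteins and regulators rose and 2 fell in control mice, and 4 rose and 4 fell in knockout mice. That is 47.1% called in each genotype, close to the 46% and 43.3% of all genes. Arhgef12, a guanine nucleotide exchange factor that the G12 and G13 proteins activate, rose from 879.7 to 1855 in control mice (log2 fold change 1.08) and from 847.8 to 1754 in knockout mice (1.04). Arrestin beta 1, Arrb1, which takes receptors out of signalling, fell from 276.6 to 128.4 (-1.06) and from 281.9 to 145.2 (-0.96), and the Gq family member Gna11 fell from 1638 to 1134 (-0.53) and from 1619 to 1182 (-0.45).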

How the data were processed

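BAT RNA of 23 mice was sequenced from Smart-seq2 libraries. The authors aligned reads to mm10 with STAR 2.4.0j and GENCODE M7, counted unique exonic reads with HTSeq irrespective of strand, and kept genes that reached 8 reads in 6 or more samples. The signal that the authors deposited is reads divided by each sample's DESeq2 size factor, called a normalized count here. The values were whole multiples of 1 read in 100% of cases, which gave back the reads. The tolerance was 0.01 read for low counts and grew with the count for high ones, so the check is weaker for abundant transcripts. A further deposited table of the authors' own fold changes and p-values was not used.

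Groups and replicate numbers came from the sample labels. The 7 members and the pathway and marker lists were chosen with earlier results of these data known. The test was limma (version 3.58.1, R version 4.3.3) on log2(normalized count + 1), all 23 samples, 4 group means, variance trend, Benjamini-Hochberg over 14651 genes, called at adjusted p under 0.05, and it was tried on simulated counts. Alternatives were pseudocounts of 0.5 and 10, a mean of at least 50, 75th percentile scaling, quantile normalization, no trend, only the compared groups, a replicate block, DESeq2 (1.42.0) and edgeR (4.0.16) on the recovered reads, and each mouse left out; leaving out 6 muscle-rich libraries was added later. Positions and exon lengths are from GENCODE M21 on GRCm38. Named genes are the members, S1pr4, up to 4 called genes per list with the smallest p in control mice, the 5 nearest by correlation (the nearest alone for most members), and the extreme neighbours; Asah1 and Asah2 are the other called ceramidases. Each library came from a different mouse, and p-values measure the spread between mice. Read numbers give counting error only, as PCR copies are not independent. Python 3.11.15, pandas 2.3.3 and matplotlib 3.10.9 were used.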

Additional observations from a re-analysis of the deposited data

Results flagged for a closer look

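In 4 of the 28 groups of mice examined for the 7 genes, 1 mouse lay far from the rest by Dixon's 95% criterion, which chance gives in about 1 of 20 groups. S1pr1 was 1076 in a BAT-Mcu-KO mouse at RT, where the next was 884.4. Sphk1 was 66.7 in a BAT-Mcu-KO mouse at 4°C, where the next was 29.3. S1pr3 was 65.3 and Sgpl1 was 7501 in control mouse 2 at 4°C, where the next were 93.8 and 11451. That mouse was also the lowest of its group in S1pr1, S1pr5, Sphk1 and Sphk2, and the highest in S1pr2.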

How the results depend on the processing

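The count of S1P genes called by cold was 4 or 5 of 7 under every alternative in both genotypes, and 4 only with a mean of at least 50, which leaves Sphk1 and S1pr2 out of the test. By genotype at RT it was 0 under all of them. The count of the 65 genes of the wider lists called by cold ran from 26 to 37 in control mice and from 23 to 36 in knockout mice, lowest without the muscle-rich libraries. By genotype at 4°C and by interaction the count turned on S1pr5, which the first of these contrasts chose, so it is no test of that gene. At 4°C it was 0 or 1, by setting and by the mouse left out, and in the interaction 0, or 1 with DESeq2. The log2 difference of S1pr5 at 4°C was 0.94 to 1.50. A replicate block gave member counts of 5 and 5 by cold, 0 by genotype at RT and 0 at 4°C, and it called 7 genes in all by genotype at 4°C instead of 11. Each mouse is a different animal, and the labels do not say whether same-numbered mice shared a batch. The mean correlation of same-numbered mice was 0.121 between the genotypes at 4°C, with 0.0416 to 0.218 over 5 pairs. Between the other pairs of groups the mean was -0.137 to 0.0645.

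Among the tested differences, signs turned only in those that were not called, and the cause was not tested. By genotype at RT, S1pr1 was 0.021 and S1pr5 0.031 without the muscle-rich libraries, and leaving out single mice gave -0.080 to 0.014 for S1pr1, -0.17 to 0.28 for S1pr2 and -0.19 to 0.028 for S1pr5. In the interaction, S1pr3 was -0.095 and Sphk2 -0.26 without the muscle-rich libraries, Sphk1 was 0.20 with DESeq2 and 0.11 with edgeR, and leaving out single mice gave -0.011 to 0.45 for S1pr2, -0.080 to 0.10 for Sphk2 and -0.23 to 0.012 for Sgpl1. In the untested comparison of genotypes at 4°C, leaving out single mice gave -0.22 to 0.029 for S1pr3. Scaling to the 75th percentile moved the median of all genes by cold in control mice by -0.12 (log2) and turned no call of a member. Low depth limits S1pr2 (8 to 56 reads per mouse), S1pr5 in the cold (6 to 25 reads in control mice) and Sphk1 at RT (0 to 9 reads).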
